A study of Mus musculus with 13 samples.

Results

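The messenger RNAs of the translation initiation, elongation and release factors were followed in mouse melanoma cells sorted from lung metastases of mice carrying either of 2 human apolipoprotein E alleles. Members were the protein-coding genes whose symbols start with Eif1, Eif2, Eif3, Eif4, Eif5, Eif6, Eef1, Eef2 or Etf1 and whose mean was at least 10 normalised counts over the 13 libraries. The Eif2ak kinases and pseudogenes were left out. Of 74 genes with these prefixes, 4 were kinases and 8 were not protein-coding, and 59 of the remaining 62 reached the mean of 10. These 59 were among the 12403 genes of the same minimum mean in a table of 22656 genes. The 3 factors below it were Eef1a2 (mean 1.46 normalised counts), Eif3j2 (1.47) and Eef1akmt3 (5.84), and the lowest members were Eef1akmt2 (45.9) and Eif5a2 (48.7).

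Both groups received 100000 cells of the line B16F10-TR-shApoe by lateral tail vein. This line is a derivative of the melanoma line B16F10, and shApoe in its name denotes a hairpin RNA against Apoe, so that the hairpin is common to both groups. The hosts were APOE2 knock-in mice (8 libraries) or APOE3 knock-in mice (5 libraries), and no age or sex was used. Lungs were taken 15 days later, and living cells with GFP and without the leukocyte antigen CD45 were sorted. Each library is thus the bulk RNA of a sort aimed at 1 tumour line, and markers of other cells were also read, as given below. In such bulk samples fewer cells of a type and less RNA per cell cannot be told apart.

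Translation factors carry a ribosome through the making of a protein. In initiation, eIF2 brings the initiator tRNA to the small ribosomal subunit, eIF1, eIF1A and eIF3 hold the subunit ready, and the eIF4 factors bring it to the cap of the mRNA. eIF2B reloads eIF2 with GTP, and this step is the one that the stress kinases block. The elongation factors eEF1A and eEF2 deliver aminoacyl-tRNA and move the ribosome along, and eRF1, the product of Etf1, recognises stop codons. In melanoma and other cancers the cap-binding step is known as a point where growth signals through mTOR and the MAP kinases act on protein synthesis.

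Promoter stretches are shown for the 3 subunits of eIF2, because these products work in 1 complex and their estimates lay on both sides of zero, and for Eif3d, which had the smallest p-value of the members. Each stretch runs from 120 bases before the annotated start to 20 bases after it, as given by RefSeq on GRCm38.p6. In GENCODE M21, Eif2s1 and Eif2s3x begin further upstream, at 78861819 and 94212862, so their stretches lie inside those gene spans. Capitals mark CCGGAAG or its reverse complement CTTCCGG, the core of sites bound by ETS-family factors.
Eif2s1 (chr12:78861952-78862091, plus strand): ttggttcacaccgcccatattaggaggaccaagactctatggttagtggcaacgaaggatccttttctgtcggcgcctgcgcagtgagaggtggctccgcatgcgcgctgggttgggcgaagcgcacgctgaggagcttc
Eif2s2 (chr2:154892887-154893026, minus strand): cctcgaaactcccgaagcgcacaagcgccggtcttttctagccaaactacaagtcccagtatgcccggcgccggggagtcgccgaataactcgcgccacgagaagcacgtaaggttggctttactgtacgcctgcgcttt
Eif2s3x (chrX:94212632-94212771, minus strand): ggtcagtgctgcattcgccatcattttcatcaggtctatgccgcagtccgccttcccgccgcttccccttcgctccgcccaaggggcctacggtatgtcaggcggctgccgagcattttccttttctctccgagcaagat
Eif3d (chr15:77970805-77970944, minus strand): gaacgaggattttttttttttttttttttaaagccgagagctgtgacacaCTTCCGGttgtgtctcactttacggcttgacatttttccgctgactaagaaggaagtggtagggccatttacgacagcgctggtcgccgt
The RefSeq table held windows for 46 of the 59 members. On either strand, 16 of the 46 (34.8%) had the motif CCGGAAG in a window of 300 bases around a start. The share was 21.2% of 9296 tested genes with a window and 9.93% of all 27025 genes in the table. Among cytosolic ribosomal protein genes it was higher than in the members, with 23 of 56 (41.1%). The median log2 difference between host genotypes was 0.083 for the 16 members with the motif and 0.035 for the 30 without it.

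Recovered reads ranged from 7080308 to 13039989 per library, and the 59 members together took 1.38% to 1.44% of them in the APOE2 libraries and 1.38% to 1.49% in the APOE3 libraries. The 8 melanocyte markers, which check the labelled cell type, summed to 302983 to 462007 normalised counts in APOE2 libraries and 220387 to 334301 in APOE3 libraries, above every other marker list, and 0 of the 8 were called. Dct alone, with means of 232522 in APOE2 and 150389 in APOE3 hosts, made up most of these sums. Of the 8 markers, 3 had estimates below zero. APOE3 replicate 2 stood apart for the members. Its median absolute deviation from the gene means was 0.33 on the log2 scale, against 0.099 to 0.21 in the other 12 libraries, and it held the highest or lowest value of all 13 libraries for 30 of the 59 members. Over all genes of mean 200 to 20000 normalised counts its deviation was 0.35, against 0.13 to 0.22. In this library 3.74% of reads fell on Gm42418, an rRNA-like transcript, against 0.662% to 3.03% elsewhere. The 3.03% was in APOE3 replicate 3, whose member deviation was 0.16. The 0.662% was in APOE2 replicate 3, whose member deviation was 0.21. A link between this share and the deviation was not tested.

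**Figure D1:**
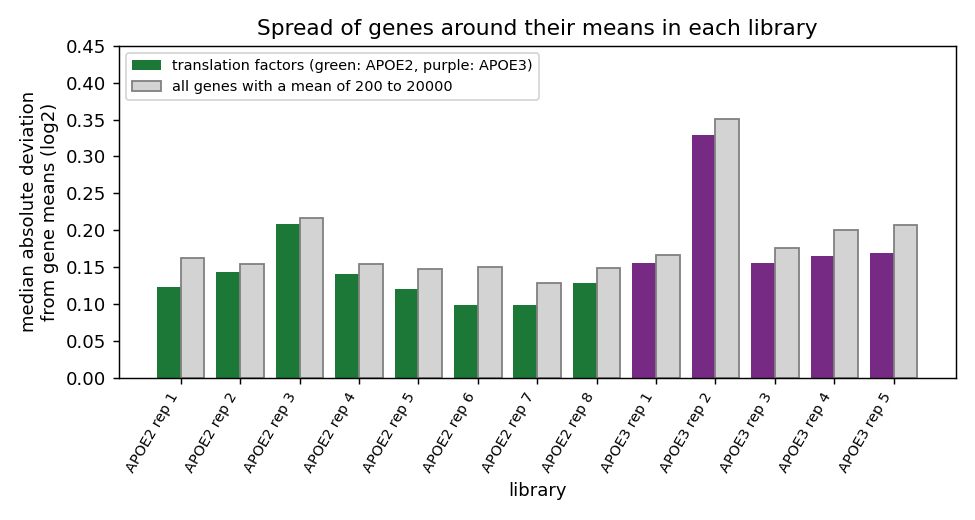
Median absolute deviation of genes from their means over 13 libraries, on the log2(normalised count + 1) scale, in each library. Coloured bars are the 59 translation factors and grey bars all genes whose mean was 200 to 20000 normalised counts, and APOE3 replicate 2 has the tallest bars (0.33 and 0.35).

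The first question was whether any translation factor differed with the allele of the host. By limma on log2(normalised count + 1), 0 of the 59 members had a Benjamini-Hochberg adjusted p under 0.05 over all 12403 genes. The background was 98 genes, or 0.79% of those tested. At an unadjusted p under 0.05 there were 8 members (13.6%), close to the 14.2% of all genes. Of these 8, 5 estimates were above zero (7.51% of all genes) and 3 below (6.71%). The 8 became 3 without APOE3 replicate 4, 4 without APOE2 replicate 2, and 5 without APOE2 replicate 3 or APOE2 replicate 8. The count rose to 9 without APOE3 replicate 2 and to 10 without APOE3 replicate 1. It was 3 in limma without the variance trend. With the lung-epithelium or endothelial marker covariate given below it was 5 or 1. The quasi-likelihood test of edgeR, run on recovered reads, called 0 members as well (1.11% of all genes), and DESeq2 called 1, Eif3d (2.5% of the genes with an adjusted p). In 0 members were the 2 groups free of overlap, where 0.984% of all genes were (0.476% with APOE2 higher and 0.508% with APOE2 lower). The smallest adjusted p of a member was 0.0991 for Eif3d, followed by 0.108 for Eif2s3x.

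The median difference was 0.053 on the log2 scale, beside 0.00037 over all genes tested, and 38 estimates were above zero and 21 below. For 40 of the 59 members (67.8%) the whole 95% interval lay within 0.5 of zero on the log2 scale, and for 56 within 1. Among all genes with means of 200 to 20000, 53.4% had intervals within 0.5, against 72.7% of the 55 members in that range. The 3 intervals that reached past 1 were those of Eif2s3x, Eif5a2 and Eef1akmt2. An interval of this kind limits the size of a difference and does not show that the groups were alike.

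**Figure D2:**
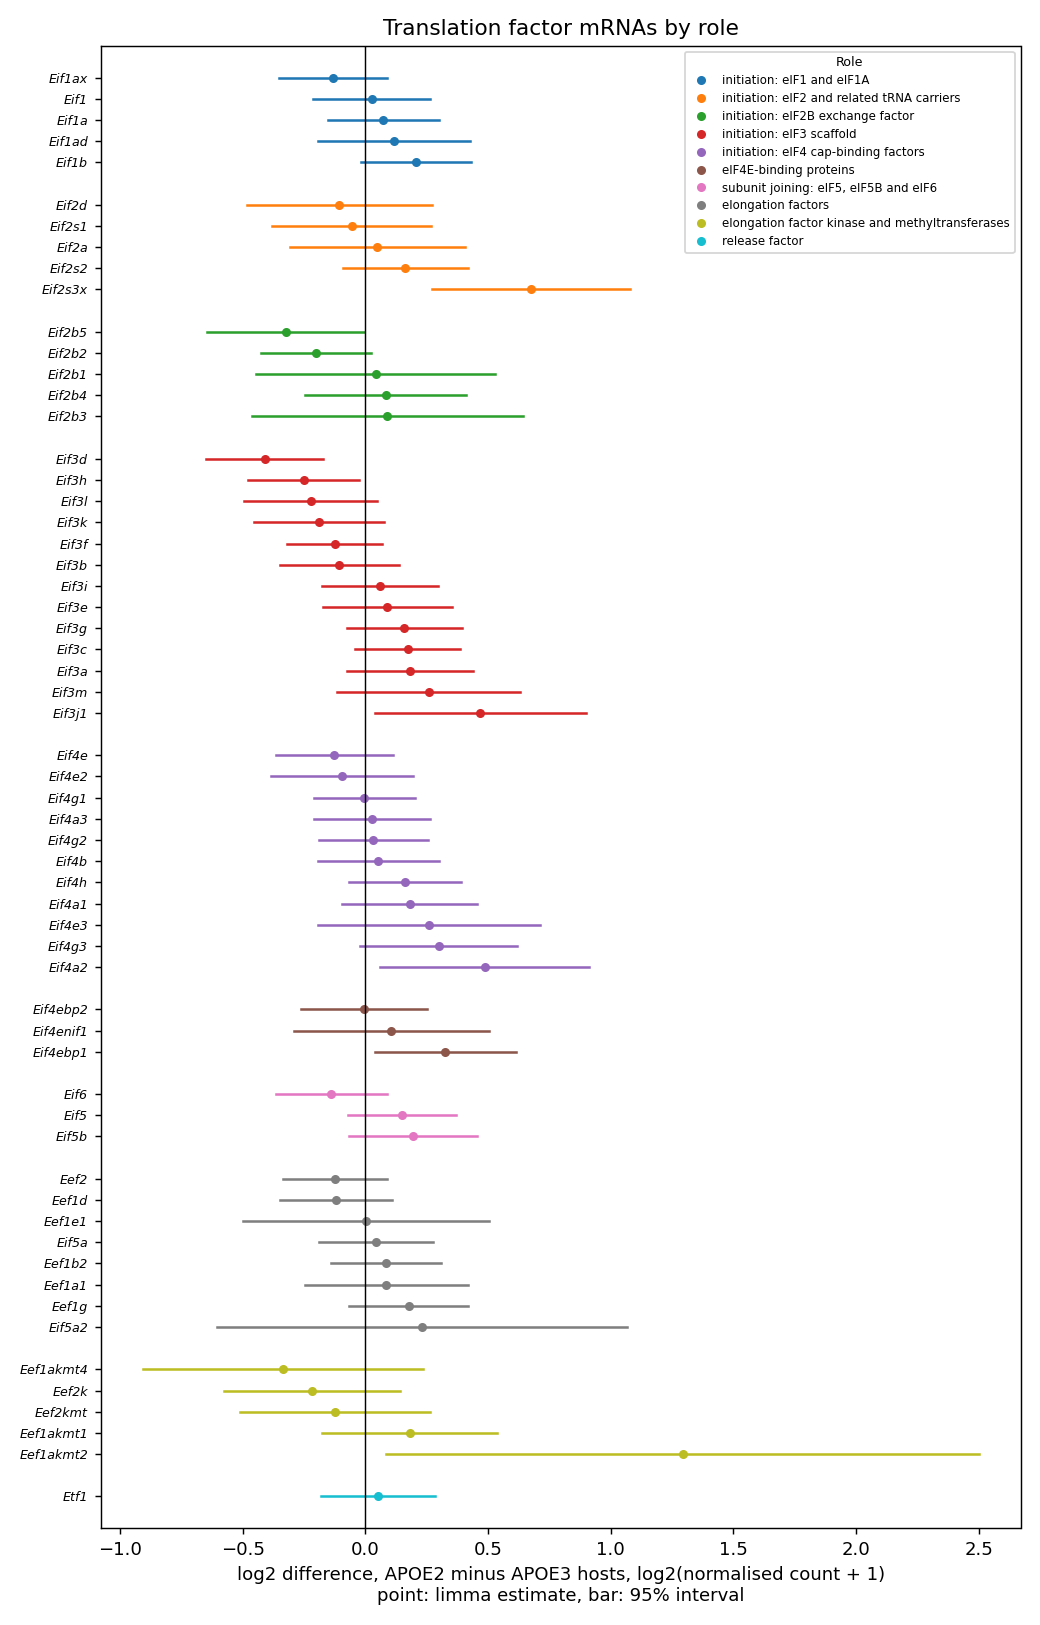
Log2 difference of each of the 59 translation factors between APOE2 (n = 8) and APOE3 (n = 5) hosts, with points for limma estimates and bars for 95% intervals, coloured by role. Most intervals cross zero, and the estimates run from −0.41 for Eif3d to 1.29 for Eef1akmt2.

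Among eIF1, eIF1A and their relatives, which act in the scan for the start codon, 0 of 5 genes passed the test, and all 5 intervals lay within 0.5 of zero. Eif1, whose product enforces the choice of the AUG codon, ran from 4106 to 5647 normalised counts in APOE2 hosts and from 3735 to 5869 in APOE3 hosts, a log2 difference of 0.026. Its paralog Eif1b ran from 1568 to 2449 with a median of 1975 in APOE2 hosts. In APOE3 hosts Eif1b had 1676, 1889, 1575, 1653 and 1824 normalised counts in replicates 1 to 5. The groups overlapped, although 7 of 8 APOE2 libraries were above the mean log2 value of APOE3, and the log2 difference was 0.21 ± 0.11 (SE; adjusted p = 0.393). The X-linked Eif1ax, which encodes eIF1A, had 1024 ± 76.1 (SD, n = 8) against 1125 ± 111 (SD, n = 5) normalised counts and a log2 difference of −0.13. Eif1ad, an eIF1A-domain gene, had a difference of 0.12. Eif1a had 0.074. Eif1b and Eif1ad overlap exons of D830035M03Rik and Banf1 on the opposite strand.

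In the eIF2 group 0 of 5 genes passed, and the estimates of its 3 subunits ran from −0.055 to 0.68. Eif2s3x (ENSMUSG00000035150), on the X chromosome at 94188707 to 94212862 of GRCm38, encodes the gamma subunit, which binds GTP and the initiator tRNA. Its lowest, median and highest values in APOE2 hosts were 349, 476 and 683 normalised counts. In APOE3 hosts the values were 447, 169, 339, 259 and 341 in replicates 1 to 5. The lowest value of the 13 was APOE3 replicate 2, and APOE3 replicate 1 lay inside the APOE2 range, so the groups overlapped. All 8 APOE2 libraries were nevertheless above the mean log2 value of APOE3, and all 5 APOE3 libraries below that of APOE2. The log2 difference was 0.68 ± 0.20 (SE), with a 95% interval from 0.27 to 1.08 and an adjusted p of 0.108. Without APOE3 replicate 2 it was 0.47, and without APOE3 replicate 1 it was 0.82 with an adjusted p of 0.0298, the only alternative of those tried in which Eif2s3x passed. Adjusted p-values over its alternatives ran up to 0.936.

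Eif2s1, which encodes the alpha subunit that stress kinases phosphorylate, ran from 412 to 606 with a median of 564 normalised counts in APOE2 hosts, and had 677, 357, 532, 579 and 780 in APOE3 hosts. Of the APOE3 values, 2 lay inside the APOE2 range, 2 above it and 1 (replicate 2) below it. Eif2s1 had a log2 difference of −0.055 with a 95% interval from −0.38 to 0.27. Eif2s2, for the beta subunit, had 4390 ± 501 (SD, n = 8) against 3974 ± 932 (SD, n = 5) normalised counts and a log2 difference of 0.16 (adjusted p = 0.580), which was 0.29 without APOE3 replicate 2 and 0.092 without APOE3 replicate 5. The highest Eif2s2 value of all libraries, 5501, was in APOE3 replicate 2, where Eif2s3x was lowest. Eif2d, which encodes a non-canonical tRNA-delivering factor, had a difference of −0.11, and Eif2a, another initiator tRNA carrier, of 0.049.

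Of the 5 subunits of eIF2B, the exchange factor that recharges eIF2, 0 passed the test. Eif2b5, for the catalytic epsilon subunit, ran from 380 to 516 normalised counts in APOE2 hosts. In APOE3 hosts it had 449, 875, 585, 484 and 443, and the value of 875 in replicate 2 was the highest of all. Its log2 difference was −0.32 ± 0.16 (SE; unadjusted p = 0.0469, adjusted 0.344), and −0.16 without that library. Eif2b2 had 1061 ± 99.0 (SD, n = 8) against 1217 ± 110 (SD, n = 5) normalised counts, a log2 difference of −0.20 that did not rest on replicate 2 (−0.18 without it). Eif2b4, which overlaps Snx17 on the opposite strand, had a difference of 0.083. Eif2b1 and Eif2b3 had 0.043 and 0.089, with the widest intervals of the group (−0.44 to 0.53 and −0.46 to 0.64).

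eIF3, the largest initiation factor, is a scaffold on the small subunit. Of its 13 measured subunit genes 0 passed the test, 7 estimates were above zero and 6 below, with a median of 0.060. Eif3d (ENSMUSG00000016554), on chromosome 15 at 77958998 to 77970813, encodes a subunit that can itself bind the cap of certain mRNAs. In APOE2 hosts its lowest, median and highest values were 1629, 1804 and 2221 normalised counts. In APOE3 hosts it had 2268, 2864, 2000, 2818 and 2651 in replicates 1 to 5, so that 4 of 5 lay above every APOE2 library and replicate 3 lay among them. The log2 difference was −0.41 ± 0.12 (SE), with an interval from −0.65 to −0.17, an unadjusted p of 0.00163 and an adjusted p of 0.0991. DESeq2 on recovered reads gave Eif3d a difference of −0.41 and an adjusted p of 0.0254, the lowest over its alternatives, which reached 0.936. Without APOE3 replicate 2 the difference was −0.36, and without replicates 2 and 3 it was −0.45. Exons of Eif3d overlap Gm17638 on the opposite strand, and the strand setting of the counting is not given in the sources used here.

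Eif3h followed with 1741 ± 193 (SD, n = 8) against 2073 ± 260 (SD, n = 5) normalised counts and a log2 difference of −0.25 (adjusted p = 0.303). Its highest value, 2491, was in APOE3 replicate 2, and the difference was −0.18 without it. Of the stretches of 50 bases at the end of its transcript, 16.3% also occur in other genes, so its count is less certain. The estimate of Eif3j1, for the loosely bound j subunit, lay on the other side of zero at 0.47 ± 0.21 (SE; adjusted p = 0.308), with 249 to 612 normalised counts in APOE2 hosts against 214 to 476 in APOE3 hosts. Eif3j1 overlaps exons of Spg11 on the opposite strand and of Gm47314 on the same strand. The octamer that forms the body of eIF3 (subunits a, c, e, f, h, k, l and m) had 4 estimates above and 4 below zero and a median of −0.017. Among its members Eif3k reached 6483 normalised counts in APOE3 replicate 2, against 3133 to 4083 in APOE2 hosts, while Eif3m was lowest there, with 272. The log2 differences of Eif3k and Eif3m were −0.19 and 0.26 (adjusted p = 0.520 and 0.540), and 40.2% of the end stretches of Eif3m also occur in other genes. The remaining subunits, Eif3a, Eif3b, Eif3c, Eif3e, Eif3f, Eif3g, Eif3i and Eif3l, had differences from −0.22 (Eif3l) to 0.18 (Eif3a), and their intervals lay within 0.5 of zero.

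**Figure D3:**
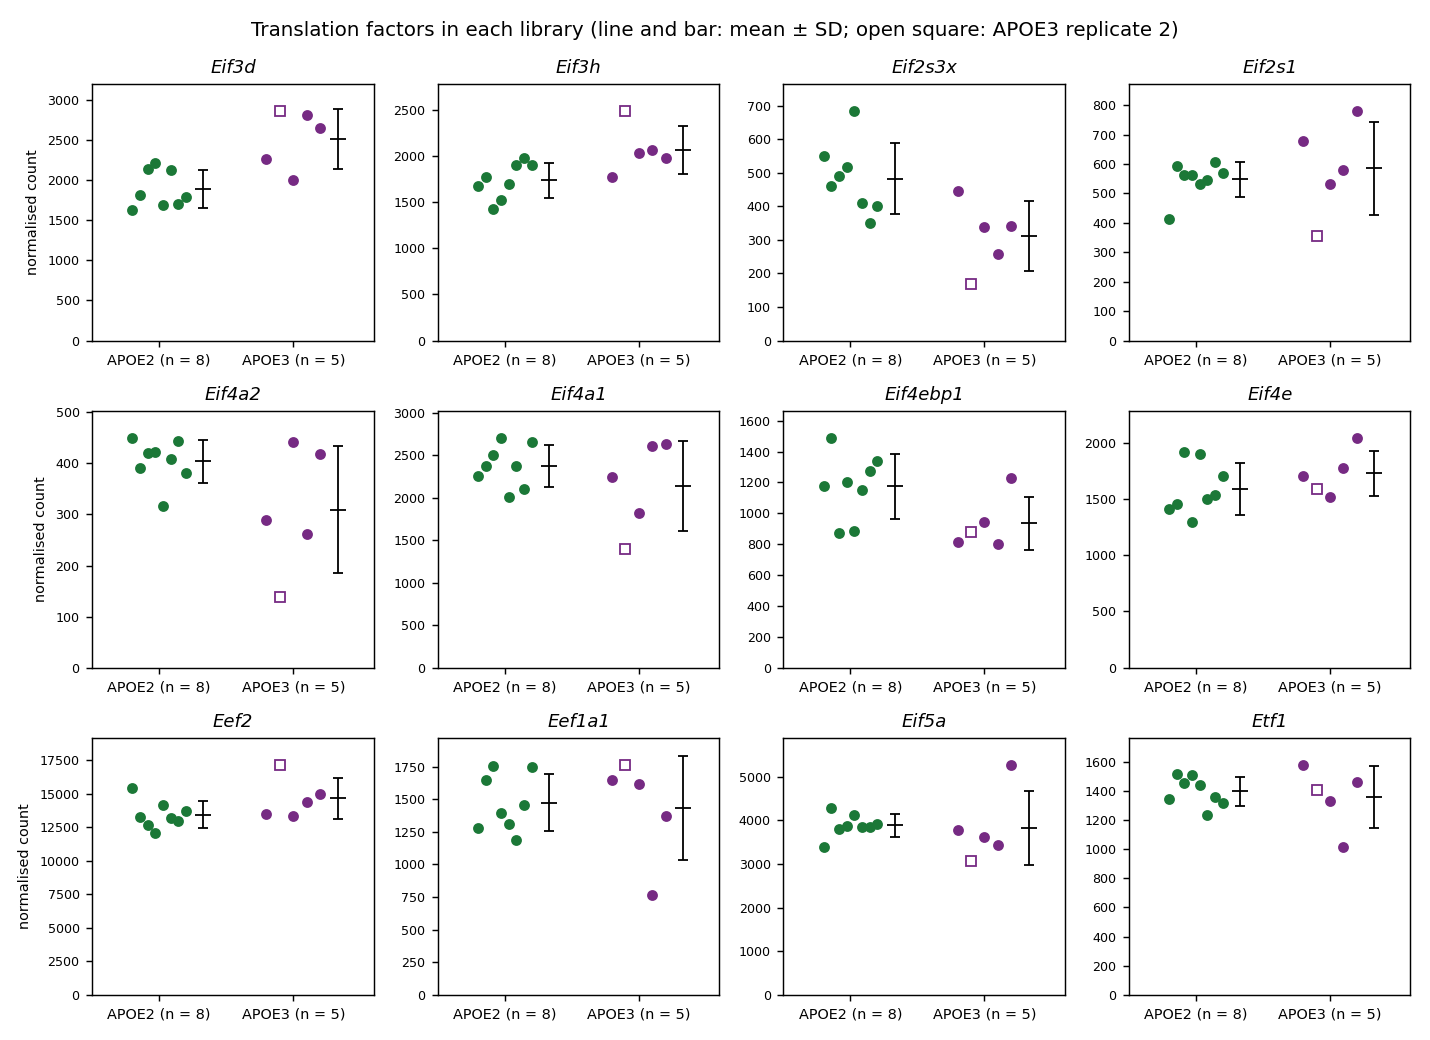
Normalised counts of 12 translation factors in each library, with APOE2 (n = 8) at left and APOE3 (n = 5) at right, and the mean ± SD beside the points. Each axis starts at 0. The open square is APOE3 replicate 2. It is the highest value for Eif3d, Eif3h, Eef2 and, narrowly, Eef1a1. It is the lowest for Eif2s3x, Eif2s1, Eif4a2, Eif4a1 and Eif5a.

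Among the eIF4 factors, which recognise the cap and unwind the leader of the mRNA, 0 of 11 passed the test. Eif4e, the cap-binding protein, ran from 1294 to 1913 with a median of 1517 normalised counts in APOE2 hosts. It had 1708, 1591, 1519, 1775 and 2039 in APOE3 hosts. Of these, 4 lay inside the APOE2 range. The log2 difference was −0.13 with a 95% interval from −0.37 to 0.11, and −0.064 without APOE3 replicate 5. The scaffold gene Eif4g1 gave −0.0037, and its relative Eif4g3 gave 0.30 (adjusted p = 0.389), which was 0.18 without APOE3 replicate 2 and 0.20 without APOE3 replicate 4. Eif4h, which assists the helicase, gave 0.16 (0.066 without APOE3 replicate 2), and Eif4b, another helicase cofactor, 0.053. Eif4g2, Eif4a3, Eif4e2 and Eif4e3 had differences of 0.033, 0.026, −0.095 and 0.26.

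The 2 paralogous eIF4A helicase genes were compared because either product can serve in the cap complex. Eif4a1 had 2012 to 2702 normalised counts with a median of 2374 in APOE2 hosts, and 2250, 1401, 1819, 2610 and 2632 in APOE3 hosts. Its log2 difference was 0.18 (adjusted p = 0.571), and 0.037 without APOE3 replicate 2, its lowest library. Eif4a2 had 316 to 449 with a median of 415 in APOE2 hosts, and 289, 138, 441, 263 and 418 in APOE3 hosts. The value of 138 was again in replicate 2. The log2 difference of Eif4a2 was 0.49 ± 0.21 (SE; adjusted p = 0.290) and was 0.22 without that library. Small nucleolar RNA genes lie within Eif4a2, and its exons overlap Rfc4 on the opposite strand and Gm49346 on the same strand.

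The eIF4E-binding proteins restrain cap-dependent initiation until mTOR phosphorylates them. Eif4ebp1 ran from 873 to 1486 with a median of 1190 normalised counts in APOE2 hosts, and had 815, 880, 946, 804 and 1228 in APOE3 hosts. In 4 of 5 APOE3 libraries it lay below the APOE2 mean, and the 2 ranges shared the values from 873 to 1228. The log2 difference was 0.32 ± 0.14 (SE; unadjusted p = 0.0282, adjusted 0.296), and it stayed between 0.27 and 0.43 whichever library was left out. Eif4ebp2 had a difference of −0.0047 and Eif4enif1, the nuclear shuttling partner of eIF4E, of 0.11.

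For subunit joining, Eif5, which triggers GTP hydrolysis by eIF2, had 6430 ± 376 (SD, n = 8) against 5850 ± 922 (SD, n = 5) normalised counts and a log2 difference of 0.15, or 0.053 without APOE3 replicate 2. Eif5b, the GTPase that joins the subunits, had a difference of 0.19, which was 0.33 without APOE3 replicate 2 and 0.11 without APOE3 replicate 1. Eif6, which keeps the large subunit apart until it is mature, had −0.14, or −0.089 without APOE3 replicate 2. Their adjusted p-values ran from 0.505 to 0.604, and all 3 intervals lay within 0.5 of zero.

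Of the 8 elongation factor genes 0 passed the test. Eef2, the translocase, ran from 12098 to 15408 with a median of 13222 normalised counts in APOE2 hosts and had 13499, 17108, 13313, 14384 and 14980 in APOE3 hosts. The log2 difference was −0.12 with a 95% interval from −0.34 to 0.088, and −0.066 without APOE3 replicate 2, the highest library. Eef1a1, which delivers aminoacyl-tRNA, had 1190 to 1757 with a median of 1423 in APOE2 hosts, and 1648, 1758, 1616, 765 and 1368 in APOE3 hosts. Here APOE3 replicate 4 was the low library, and 23.5% of its end stretches also occur in other genes. The log2 difference of 0.086 became −0.13 without APOE3 replicate 4. The subunits of the exchange factor for eEF1A gave 0.18 for Eef1g, 0.083 for Eef1b2 and −0.12 for Eef1d (−0.060 without APOE3 replicate 2 and −0.21 without APOE3 replicate 3). Eif5a, whose product carries hypusine and eases stalled ribosomes, had 3885 ± 260 (SD, n = 8) against 3827 ± 841 (SD, n = 5) normalised counts and a difference of 0.044. Its sparse paralog Eif5a2 had 0.23, with an interval from −0.61 to 1.07, and Eef1e1 had 0.0025.

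Of the 5 enzymes that modify elongation factors 0 passed the test, and none of their intervals lay within 0.5 of zero (0 of 5). Eef1akmt2, a lysine methyltransferase for eEF1A, had from 11.3 to 110 normalised counts with a median of 55.1 in APOE2 hosts. In APOE3 hosts it had 29.5, 3.39, 80.1, 17.9 and 13.9. The log2 difference was 1.29 ± 0.58 (SE; unadjusted p = 0.0368, adjusted 0.318), and without APOE3 replicate 2 it was 0.75. DESeq2 on recovered reads gave Eef1akmt2 a difference of 0.96, so at such low values the size of the estimate depended on the method. Eef2k, the kinase that inhibits eEF2, had 277 ± 41.7 (SD, n = 8) against 328 ± 82.7 (SD, n = 5) normalised counts and a difference of −0.22 (adjusted p = 0.604), which ran from −0.12 without APOE3 replicate 2 and −0.13 without APOE3 replicate 5 to −0.35 without APOE3 replicate 1. Eef1akmt4 had a difference of −0.34 (adjusted p = 0.619), or −0.15 without APOE2 replicate 3 and −0.17 without APOE3 replicate 4. Its exons overlap Alg3 on the opposite strand and Gm49333 on the same strand. Eef1akmt1 and Eef2kmt had 0.18 and −0.12. The release factor gene Etf1 had 1395 ± 99.0 (SD, n = 8) against 1357 ± 211 (SD, n = 5) normalised counts, a difference of 0.052 with an interval from −0.18 to 0.28.

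The spread between libraries was also compared. The coefficient of variation within the APOE2 group had a median of 12.2% over the members and within the APOE3 group 18.5%, which became 14.3% without APOE3 replicate 2. The SD was larger in the APOE3 group for 43 of 59 members (72.9%), beside 68.2% of all genes tested. Without that library it was larger for 33 of 59 (55.9%), beside 57.0% of all genes. Leaving out 1 library moved the log2 difference by over 1.5 times in 24 of the 33 members selected by p-value or role, and in 21 of these 33 the omission of APOE3 replicate 2 did so. The 9 that stayed within 1.5 times were Eef1g, Eif1ax, Eif1b, Eif2b2, Eif2s3x, Eif3d, Eif3h, Eif3j1 and Eif4ebp1. Small shifts move an estimate near zero, such as the −0.0047 of Eif4ebp2, by over 1.5 times. These counts therefore depend on the size of the estimates and are not a measure of stability alone. In APOE2 replicate 3, the second most deviant library, 21 members were at the highest or lowest value of all 13. APOE2 replicate 6 held no member's extreme value (0 of 59).

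**Figure D4:**
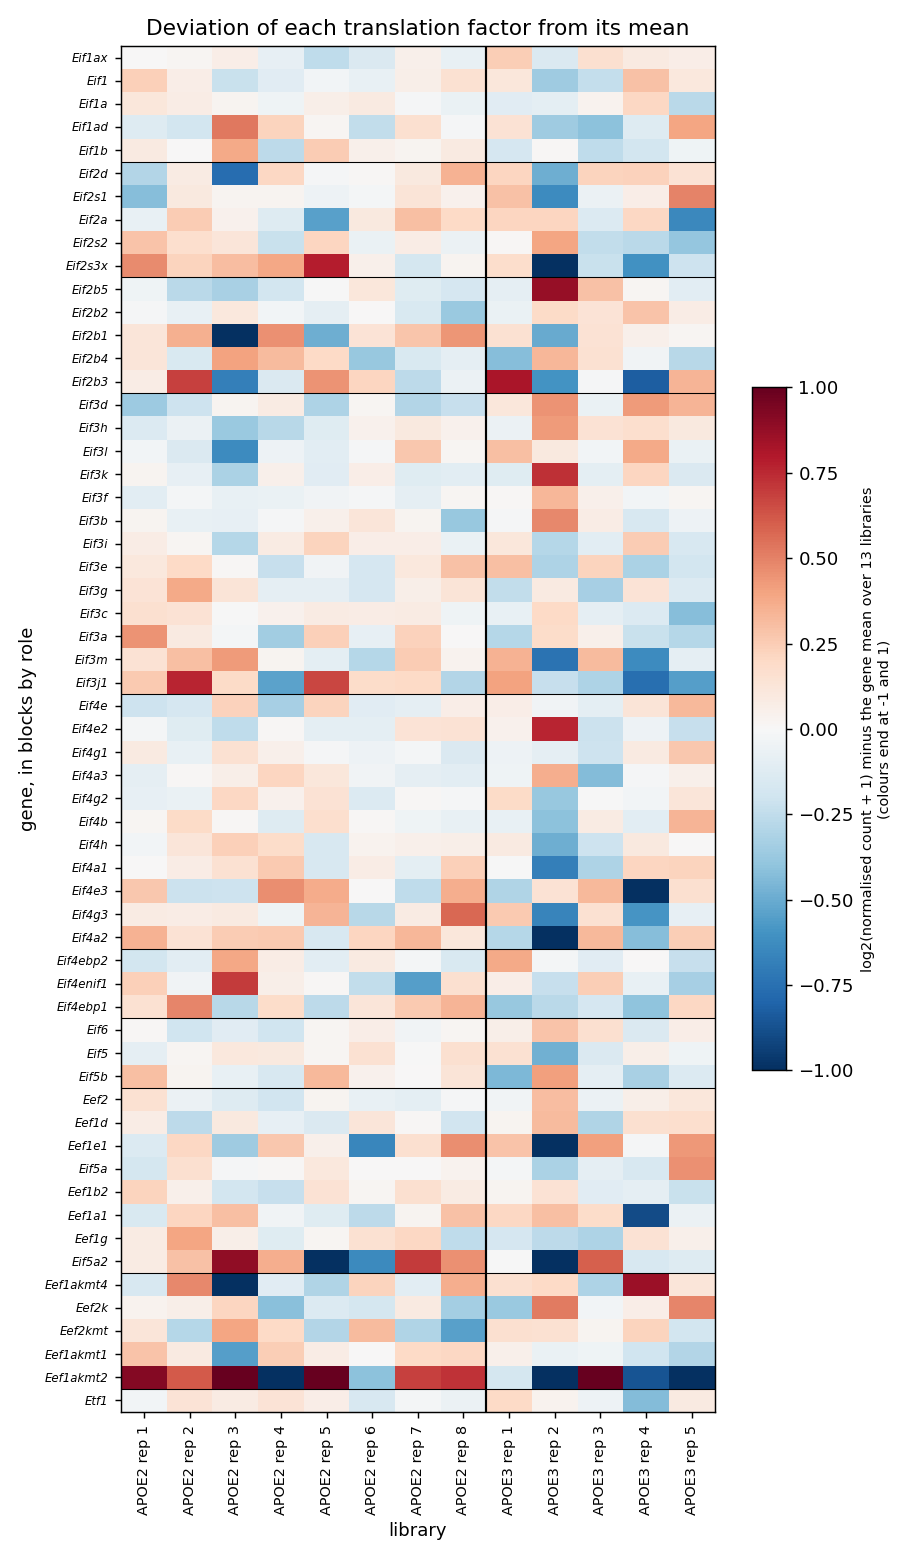
Deviation of log2(normalised count + 1) of each translation factor from its mean over the 13 libraries, with genes in blocks by role and libraries in columns (red above, blue below the mean). APOE3 replicate 2 holds the highest or lowest value in 30 of the 59 rows, and 0 rows separate the 2 groups.

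Other genes of the pathway were taken from a list of 51, of which 49 reached the mean of 10 normalised counts. By limma 0 of the 49 passed the threshold (background 0.79%), 6 (12.2%) had an unadjusted p under 0.05 (5 above and 1 below zero) where 14.2% of all genes did, and the median log2 difference was 0.046. The smallest p belonged to Dnajc24, which acts in making the diphthamide residue of eEF2. It had 109 ± 25.5 (SD, n = 8) against 59.3 ± 31.4 (SD, n = 5) normalised counts and a log2 difference of 1.02 ± 0.32 (SE; adjusted p = 0.135). Tpt1, a growth-related protein whose mRNA is controlled like those of ribosomal proteins, had 3651 ± 454 against 2749 ± 948 and a difference of 0.49 (adjusted p = 0.198), which was 0.25 without APOE3 replicate 2. Dhps, the enzyme that begins hypusine synthesis on eIF5A, had 244 ± 43.6 against 174 ± 83.7 and a difference of 0.68 (adjusted p = 0.296), which was 0.26 without APOE3 replicate 4. For each of these 3 genes all 8 APOE2 libraries were above the mean log2 value of APOE3, and the groups overlapped. The 4 Eif2ak kinases, which phosphorylate eIF2 alpha, had differences from −0.029 to 0.27 and adjusted p-values from 0.420 to 0.976.

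The ribosomal protein genes, the other large class of the translation machinery, were set beside the factors. Of 74 cytosolic ribosomal protein genes 6 were called higher in APOE2 hosts and 0 lower (background 0.411% and 0.379%), and 39 (52.7%) had an unadjusted p under 0.05, where 14.2% of all genes did. Their median log2 difference was 0.29, beside 0.053 for the translation factors, and 60 of 74 (81.1%) were above zero against 38 of 59 (64.4%). Without APOE3 replicates 2 and 3 the 2 medians were 0.18 and −0.0015. Whether the 2 classes differed was not tested, since genes of a class are not independent replicates.

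**Figure D5:**
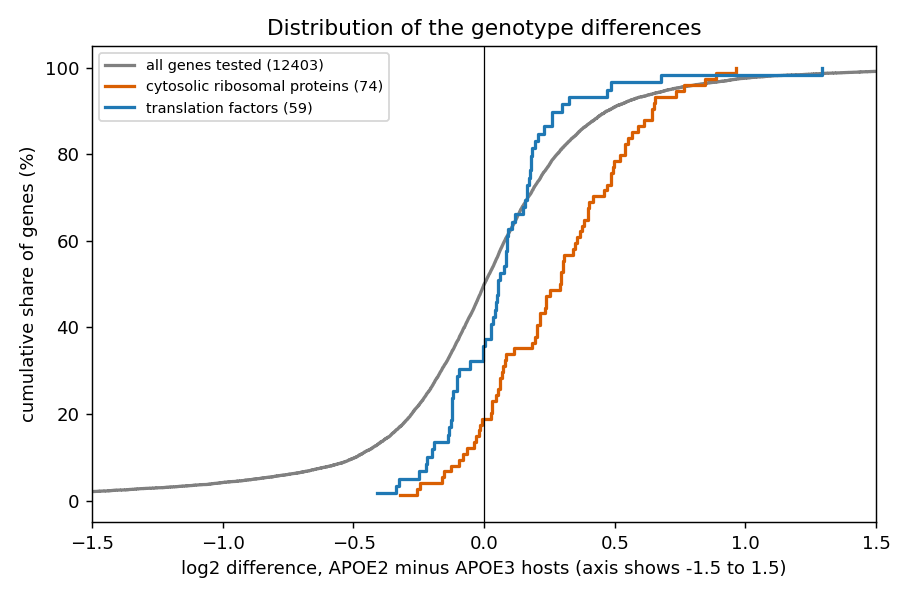
Cumulative share of genes against the log2 difference between APOE2 and APOE3 hosts, for all 12403 genes tested, 74 cytosolic ribosomal protein genes and the 59 translation factors. The curve of the factors crosses 50% at 0.053 and that of the ribosomal proteins at 0.29.

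The median sums of lung-epithelium, endothelial, fibroblast and smooth muscle, leukocyte and heart muscle markers were higher in APOE3 libraries. That of erythroid markers was not. Of 13 lung-epithelium markers tested all 13 had estimates below zero and 7 were called lower in APOE2 hosts, and the 15 listed markers summed to 830 to 4403 normalised counts in APOE2 libraries and 3726 to 22820 in APOE3 libraries. The 14 endothelial markers, with 2 called lower, summed to 801 to 1204 and 1088 to 2322. Fibroblast and smooth muscle markers summed to 120 to 450 and 258 to 1885 (6 of 12 tested, 1 called lower), leukocyte markers to 555 to 2652 and 2196 to 12775 (9 of 15 tested, 8 below zero, 2 called lower), and heart muscle markers to 34.0 to 179 and 216 to 509 (5 of 6 tested, 1 called lower). Erythroid markers summed to 40.6 to 189 and 23.2 to 220, with 0 called. In the leukocyte list Lyz2, which alveolar type 2 cells also express, had means of 1162 and 5288 and so made up most of the sum. S100a8 had means of 122 and 118, S100a9 72.2 and 57.2, C1qa 8.34 and 5.17, and Itgam 8.27 and 4.75, and Ptprc, which encodes the CD45 of the sort, 6.90 and 14.0. Scgb1a1, of the lung-epithelium list, had the higher mean in APOE2 hosts (157 against 29.5) although its fitted log2 difference was below zero. Markers with no reads in at least 2 of the 13 libraries numbered 3 of 15 for lung epithelium, 3 of 14 for endothelium, 5 of 12 for fibroblasts and smooth muscle, 5 of 15 for leukocytes, 4 of 6 for erythroid cells, 3 of 6 for heart muscle and 0 of 8 for melanocytes. Among them were Epcam, at 0 in 6 of 8 APOE2 and 1 of 5 APOE3 libraries, and Cd3e and Cd79a, each at 0 in 7 and 3. With the mean log2 value of the lung-epithelium or endothelial markers as a covariate, 0 members were called in each fit, and 0 of all genes were called too. Both marker lists moved with the groups, so a covariate made from them varies together with host genotype. These fits therefore cannot tell genotype and other cells' RNA apart. The part of other cells' RNA in the members' differences was not tested. In those fits the log2 difference of Eif3d was −0.45 and −0.34, and that of Eif2s3x 0.41 and 0.47.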

How the data were processed

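The values are normalised counts, deposited by the authors as a signal for each gene (reads over a size factor of the library), from 13 QuantSeq FWD libraries, which hold transcript ends, per the labels' protocols. STAR 2.6.0, featureCounts and DESeq2 1.28.1 on mm10 are named in the submitters' processing notes. The annotation and the strand setting are not given in the sources used here. Every nonzero value was a whole multiple of 1 step per library (100% within 0.01 reads), which gave recovered reads. No molecular identifiers are named, so reads may repeat molecules.

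Symbols and positions came from GENCODE M21 (GRCm38), in which 22649 of 22656 identifiers were found and 7 were not. Members, gene lists and tests were chosen with earlier results of these data known. log2(value + 1) was fitted with limma 3.58.1 (R 4.3.3; variance trend, two-sided, Benjamini-Hochberg over 12403 genes, threshold 0.05). The steps were tested on simulated data. edgeR 4.0.16 and DESeq2 1.42.0 used recovered reads. The series' design gives 8 and 5 mice, and replicate numbers were not taken as pairs. Named genes were the 3 members of each role group with the smallest p (all in smaller groups), Eif2s1, Eif4e, Eif4a1, Eif5a, Eef1a1, Eef2 and Etf1, and the 3 other pathway genes with the smallest p; further members were named after their values were seen. Of the members, 15 have exons that overlap an opposite-strand gene and 12 a same-strand gene. For 6 of 59 (Eef1a1, Eef1b2, Eif3h, Eif3i, Eif3m and Eif4a3) some stretch of 50 bases in the last 300 of the longest coding transcript also occurs in another gene, so their counts are less certain.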

Additional observations from a re-analysis of the deposited data

Results flagged for a closer look

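In 66 screens of the named members (33 genes in 2 groups), 3 libraries stood apart from their group by Dixon's criterion, where chance gives about 3.3. Eif2d in APOE3 replicate 2 had 229 normalised counts, against 356 to 378 in the other 4 libraries of that group. Eif2s1 in APOE2 replicate 1 had 412, against 533 to 606 in the other 7. Eif4ebp2 in APOE2 replicate 3 had 1242, against 838 to 1009 in the other 7.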

How the results depend on the processing

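No translation factor passed the threshold of 0.05 in the main test, and the count stayed at 0 in either direction under every alternative except 3: without APOE3 replicate 1, 1 was called higher (Eif2s3x), and DESeq2 and a threshold of 0.1 each called 1 lower (Eif3d), so that leaving out 1 library gave 0 to 1 called higher. The other translation genes had 0 calls throughout. The members' median log2 difference was 0.013 with equal totals, where the median of all genes tested moved too, from 0.00037 to −0.039. The members' median was −0.0015 without APOE3 replicates 2 and 3, and 0.012 and 0.014 with the lung-epithelium and endothelial covariates. With 1 library left out it ran from 0.027 (without APOE3 replicate 2) to 0.089 (without APOE3 replicate 1). The 98 genes called over the whole table became 9 with no filter, 1 without APOE3 replicates 2 and 3, 0 without the variance trend, 0 with either covariate, 310 by DESeq2 and 204 at a threshold of 0.1, and ran from 9 (without APOE3 replicate 3) to 228 (without APOE3 replicate 1). With a replicate block 43 genes and 0 members were called and the members' median was 0.069; same-numbered libraries correlated at −0.063 to 0.014, no APOE3 library correlated best with its own number, and the numbers were not taken as pairs. Of 36 named genes 20 kept their sign in every setting. Reversed log2 differences were, for Eif4ebp2, 0.00353 with TMM scaling and 0.011 with the replicate block, and for Eif4enif1 −0.039 with array weights. Without APOE3 replicates 2 and 3 they were −0.0015 for Eif4h, −0.076 for Eif4a1, −0.074 for Eif5a and −0.0902 for Eif1ad. With the lung-epithelium covariate they were 0.099 for Eif2d, −0.020 for Eif4g3, −0.053 for Eif2b4, −0.30 for Eef1a1, −0.23 for Eif4enif1, 0.29 for Eef1akmt4, −0.13 for Etf1 and −0.19 for Eif1ad. With the endothelial covariate they were 0.22 for Eif2d, −0.18 for Eif3j1, −0.11 for Eif2s2, −0.17 for Dhps, −0.17 for Eef1a1, −0.022 for Eif4enif1, 0.024 for Eif2s1, 0.18 for Eef1akmt4 and −0.11 for Etf1. Leaving out 1 library gave −0.13 to 0.17 for Eef1a1, −0.0094 to 0.18 for Eif2b4, −0.22 to 0.060 for Eif2s1, −0.064 to 0.089 for Eif4ebp2, −0.029 to 0.16 for Eif5a and −0.049 to 0.11 for Etf1. The cause was not tested. The number of libraries limits the precision to the intervals given.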
